A study of Mus musculus with 8 samples.

Results

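The genes described here were 10 cell cycle and proliferation genes, chosen by their symbols from the 49671 gene identifiers of a table of liver read counts: Mki67, Top2a, Ccna2, Ccnb1, Cdk1, Ccnd1, Mcm2, Mcm6, Cdkn1a and Ccng1. All 10 had counts in all 8 libraries, and 9 of the 10 passed the filter on low values (a CPM, the count per 1000000 counts of the library, of 1 or more in at least 2 libraries) that left 13117 genes for testing. Ccnb1 did not, and is given by its values. Of the 9, Ccnd1 alone passed the test in a comparison and was higher in females of both genotypes, and no member was called between NT-KO and WT. RNA was taken from livers of mice labelled C57BL/6, after weaning, with 2 libraries for each combination of sex and genotype (wild type, WT, or NT-KO). NT-KO mice are homozygous for a CRISPR/Cas9 deletion at the beginning of the coding sequence of Lbr, which encodes the Lamin B receptor. The authors expect the protein made to lack its N-terminal domains while its sterol reductase part is kept. They also speak of a severe reduction of the protein. The founder was crossed to C57BL/6N females. The deletion is in the germ line and so in all cells, not in one cell type. Nothing in the labels ties a replicate number to a litter or day, or says more of the animals behind each library, so p-values measure only the spread between these samples.

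A cell that divides passes from G1, where D-type cyclins act, through S phase, where the genome is copied, to G2 and mitosis, which the CDK1 kinase drives with cyclins A and B. In adult liver nearly all hepatocytes rest outside this cycle and re-enter it after injury or loss of tissue, while immune and other non-parenchymal cells also divide there. Transcripts for mitosis are made late in the cycle and are destroyed or shut off afterwards, so their level in a tissue is known to follow the share of cells in that phase, while CDK inhibitors and several p53 target genes act against the cycle. In RNA from whole tissue, fewer cells of a type and less RNA per cell cannot be told apart.

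Totals ran from 45020377 to 64396291 counts per library, so that 1 count was worth 0.0147 to 0.0236 CPM after scaling by TMM factors, which all CPM values below include. A gene is called where its p, adjusted for all genes tested, is at most 0.05. Lbr itself, in which only the deleted stretch would check the genotype, was read at 6.54 to 7.99 CPM in the 4 WT libraries and 12.8 to 14.04 CPM in the 4 NT-KO libraries; the count over the whole gene does not show the deletion. Hepatocyte markers were high in all libraries, led by Alb at 51860 to 83430 CPM. None of the 8 was called between the sexes, where 7.84% of all tested genes were. In the fit 5 were lower and 3 higher in females. At an unadjusted p under 0.05 (edgeR's quasi-likelihood test) 3 were lower and 0 higher, against 26.9% of all tested genes in either direction. Hnf4a, chosen after its values were seen, was read at 426 to 540 CPM in males and 386 to 400 CPM in females.

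The members that mark S phase, G2 and mitosis were measured in the lower part of the range of tested genes, apart from Ccnb1, which was not tested. On the scale of CPM per kilobase of exon, which allows genes to be compared, their means over 8 libraries were 0.396 for Cdk1, 0.236 for Ccna2, 0.213 for Mki67, 0.211 for Top2a and 0.0942 for Ccnb1. The replication helicase subunits lay at 0.925 for Mcm6 and 0.438 for Mcm2, and the CDK inhibitor Cdkn1a lay at 0.410. Ccnd1 (5.99) and Ccng1 (8.32) stood above these. By mean CPM they were at the percentiles 70.6 and 71.3 of the tested genes, whereas Ccna2 lay at 3.41 and Mki67 at 15.6.

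The promoters are shown because the mitotic members are grouped in textbooks by sites in this stretch, a CCAAT box bound by NF-Y and a cell cycle homology region (CHR) bound by the DREAM and MuvB complexes, and the replication genes by an E2F site. They are RefSeq sequences on GRCm38.p6 of the 250 bases before the gene's start, 5′ to 3′ on the strand of the gene, all 4 on the minus strand. Capitals mark every match, on either strand, to TTTGAA (CHR), CCAAT, or TTTCGCGC, TTTCCCGC, TTTGGCGC or TTTGCCGC (E2F), and where matches overlap the capitals run on.
Mki67, chr7:135716380-135716629: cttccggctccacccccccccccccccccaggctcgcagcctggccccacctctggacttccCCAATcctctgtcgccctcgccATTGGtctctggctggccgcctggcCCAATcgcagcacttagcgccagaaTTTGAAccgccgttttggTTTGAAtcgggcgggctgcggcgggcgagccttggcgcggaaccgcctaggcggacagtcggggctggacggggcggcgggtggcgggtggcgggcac
Top2a, chr11:99024190-99024439: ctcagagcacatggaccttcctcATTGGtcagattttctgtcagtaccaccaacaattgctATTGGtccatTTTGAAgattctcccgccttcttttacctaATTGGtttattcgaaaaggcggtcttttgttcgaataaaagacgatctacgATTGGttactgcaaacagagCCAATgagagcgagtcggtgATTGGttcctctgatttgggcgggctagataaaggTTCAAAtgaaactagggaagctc
Cdk1, chr10:69352913-69353162: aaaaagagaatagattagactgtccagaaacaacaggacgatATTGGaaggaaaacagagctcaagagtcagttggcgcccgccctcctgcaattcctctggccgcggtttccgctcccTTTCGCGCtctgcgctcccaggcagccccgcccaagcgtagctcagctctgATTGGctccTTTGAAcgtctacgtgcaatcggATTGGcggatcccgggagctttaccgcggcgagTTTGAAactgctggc
Mcm6, chr1:128359706-128359955: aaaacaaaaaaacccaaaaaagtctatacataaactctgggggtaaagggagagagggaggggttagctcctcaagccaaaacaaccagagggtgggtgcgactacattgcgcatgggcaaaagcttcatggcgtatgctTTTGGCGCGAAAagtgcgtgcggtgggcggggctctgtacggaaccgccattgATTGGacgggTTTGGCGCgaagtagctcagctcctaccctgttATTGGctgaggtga

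The table held promoters of 8 of the 10 members. Mki67 and Top2a each had 2 CHR matches, with 3 and 6 CCAAT matches, and Cdk1 had 2 CHR matches, 3 CCAAT matches and 1 E2F match. Mcm6 had 3 E2F matches, of which a pair overlap on opposite strands, and 2 CCAAT matches. Mcm2 had 1 CHR and 1 CCAAT match, Ccnb1 had 2 CCAAT matches, Ccng1 had 3, and neither of the 2 promoters listed for Cdkn1a had a match to any of these letters. Of 32851 promoters of the same length, 15.99% held the CHR letters, 33.9% CCAAT, 5.55% both, and 1.86% an E2F match. A match describes the letters and not a bound site.

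Mki67 (chr7:135689784-135716361), which encodes the Ki-67 protein that coats mitotic chromosomes, was counted 69 times in replicate 1 and 127 times in replicate 2 of the WT males (1.22 and 3.00 CPM) and 84 and 111 times in the NT-KO males (1.71 and 2.12 CPM). The WT females had 150 and 69 counts (2.74 and 1.01 CPM), and the NT-KO females 134 and 195 (2.35 and 2.98 CPM). Values of other genes are given in this order of replicates. The libraries within each WT group differed more than the group means did, and the groups overlapped in every comparison.

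Top2a (chr11:98992943-99024189), the DNA topoisomerase that untangles chromosomes in G2 and mitosis, was read at 0.935 and 3.00 CPM in male WT and at 0.834 and 2.27 CPM in male NT-KO. In females it was read at 1.76 and 0.970 CPM in WT and at 3.37 and 2.06 CPM in NT-KO. Both female NT-KO libraries lay above both female WT libraries, as did 12.2% of all tested genes in that comparison, and the males overlapped. Fitted with edgeR's quasi-likelihood test, the log2 fold change of female NT-KO against WT was 1.00 (SE 0.637), and its Benjamini-Hochberg adjusted p was 1.

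Ccnb1 (chr13:100778650-100786570), cyclin B1, the partner of CDK1 in mitosis, had 6 and 26 counts among the WT males and 12 and 19 among the NT-KO males. The WT females had 17 and 7 counts, and the NT-KO females 55 and 31. Exact Poisson 95% intervals, which cover counting error only, ran from 0.0413 to 0.212 CPM for the 7 counts of female WT replicate 2 and from 0.728 to 1.26 CPM for the 55 counts of female NT-KO replicate 1. The female NT-KO libraries were both above the female WT libraries, with a difference in mean log2 CPM of 1.70. Of the tested genes, which do not include Ccnb1, 12.2% were also all above in that comparison. The fits with weaker filters, which did test the gene, gave 1.82 with an adjusted p of 0.0564 where all genes with a count were kept and 1.82 with an adjusted p of 1 under edgeR's filterByExpr (edgeR's quasi-likelihood test, Benjamini-Hochberg). In males the difference was 0.14 and the groups overlapped. Of the 50-base stretches of the transcript, 23.4% were also found in other genes, of which the pseudogene Ccnb1-ps shared the most. How the counting treated reads with several places was not given in the sources used here.

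Ccna2 (chr3:36564865-36572150), cyclin A2, which acts from S phase into mitosis, was measured at 0.688 and 1.23 CPM in the WT males, with 0.916 and 1.26 in the NT-KO males, and at 1.17 and 0.632 in the WT females, with 0.913 and 0.887 in the NT-KO females. These were 39 to 66 counts per library, and 2 of the 4 replicate pairs differed beyond counting error. The gene shares 12.5% of its exon bases with Exosc9 on the other strand, and without a stated strand setting reads of the pair cannot be told apart there. Cdk1 (chr10:69335146-69352938), the kinase that drives mitosis, was measured at 1.62 and 2.93 CPM in the WT males, with 1.32 and 2.42 in the NT-KO males, and at 2.12 and 1.35 in the WT females, with 2.23 and 1.62 in the NT-KO females. All 4 of its replicate pairs differed beyond counting error, by 1.38 to 1.83 times. Taken as a whole, the tested genes also spread far beyond counting error between replicates. Their chi-square per degree of freedom was 113 in female NT-KO, the lowest group, and 279 in male NT-KO, the highest. The share of all genes whose pairs differed in this way was not computed.

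**Figure D1:**
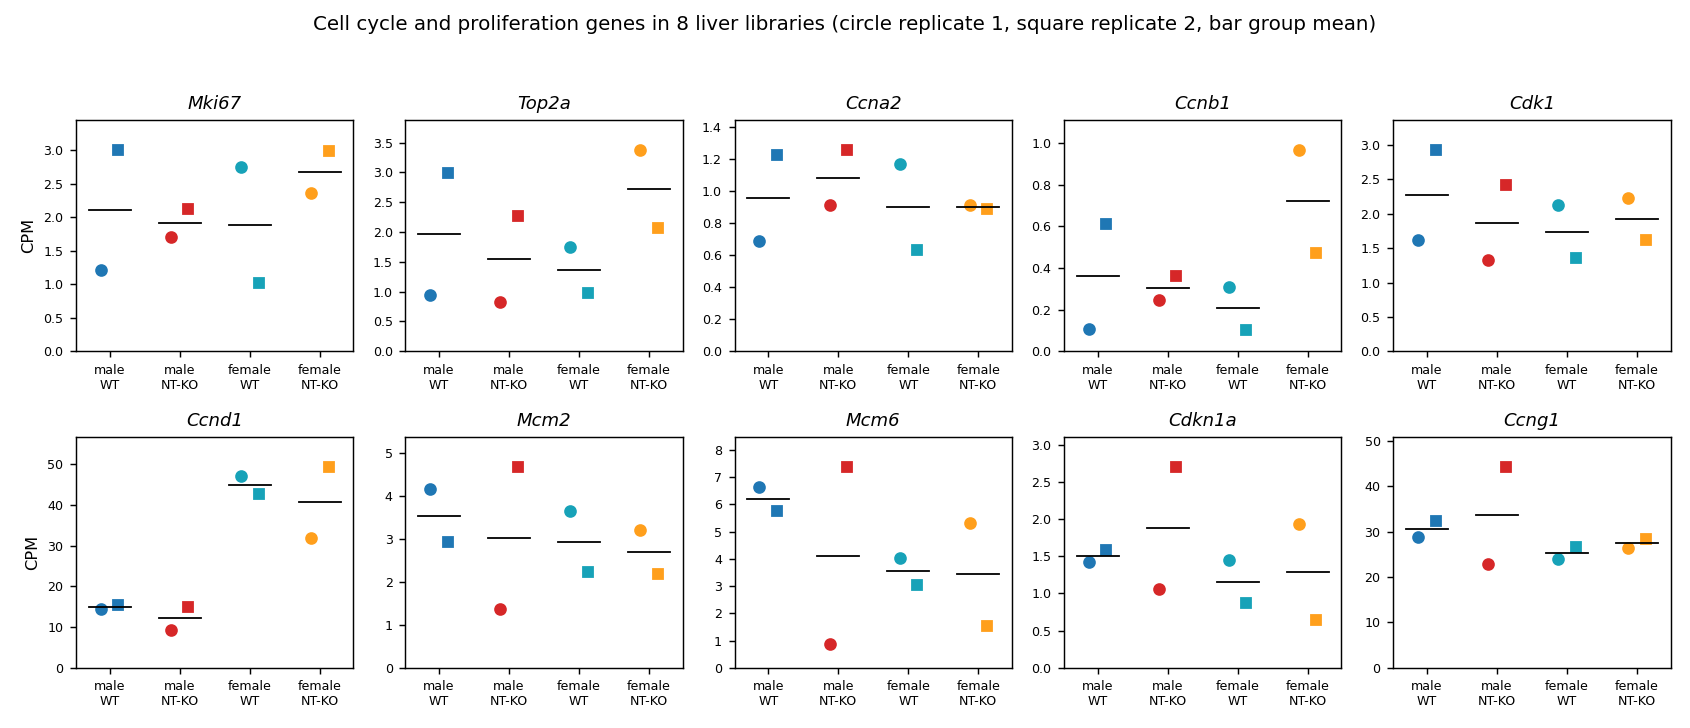
CPM (y axes from 0) of the 10 genes in the 8 liver libraries, by sex and genotype (x axes); circles are replicate 1, squares replicate 2 and bars group means. Ccnd1 is the gene whose 4 female libraries (32.0 to 49.4 CPM) all lie above its 4 male libraries (9.22 to 15.5 CPM), and the largest ratio within a group is that of Mcm6 in male NT-KO (8.63).

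The 5 mitotic members mostly went the same way between replicates of a group, though not all of these differences exceeded counting error. In male WT all 5 were higher in replicate 2 than in replicate 1, with summed levels of 10.8 and 4.57 CPM, and in male NT-KO all 5 were also higher in replicate 2 (8.42 and 5.03 CPM). In female WT all 5 were lower in replicate 2 (4.07 against 8.10 CPM), and in female NT-KO 4 of 5 were lower (8.03 against 9.83 CPM), the exception being Mki67. In both WT groups all 5 differed beyond counting error, as did the tested genes taken as a whole. In male NT-KO Mki67 (1.24 times), Ccna2 (1.37) and Ccnb1 (1.48) did not. In female NT-KO Ccna2 (1.03) did not, while Mki67, which went the other way, did. Each group held a library at or above 8.1 CPM, and the 3 lowest sums were in male WT replicate 1, male NT-KO replicate 1 and female WT replicate 2. The ranges of all 4 groups overlapped.

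Of a list of 30 other genes of G2 and mitosis, which included Ccnb2 (cyclin B2), Plk1 and Aurka (mitotic kinases), 11 passed the filter. Ccnb2 ranged from 0.338 to 1.44 CPM, Plk1 from 0.0882 to 0.615 CPM and Aurka from 1.88 to 2.93 CPM over the 8 libraries, and the phosphatase gene Cdc25c had no count in 1 library. Spc25, a kinetochore gene named after its values were seen, ran from 1.70 to 5.72 CPM and was the 1 gene of the list that was read above 3.37 CPM, the highest value of a mitotic member. Summed over the list, the levels were 21.1 and 30.8 CPM in the WT males, with 19.9 and 26.3 in the NT-KO males, and 29.3 and 21.3 in the WT females, with 33.4 and 26.8 in the NT-KO females, in the same order within each pair as the sums of the 5 members. Of the 11 tested, none was called in any of the 5 comparisons by edgeR's quasi-likelihood test, and 0 had an unadjusted p under 0.05. Over all tested genes the share called ran from 0.00762% (female NT-KO against WT) to 7.84% (female against male). The share at an unadjusted p under 0.05 ran from 1.55% to 26.9% in those same comparisons.

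By a fixed measure, the root mean square difference of gene-centred log2 CPM over the 8 libraries, 4 genes were most like the mean profile of the 5 mitotic members. These were Apcs (0.252), which encodes the plasma protein serum amyloid P and is made by hepatocytes, the mitotic kinesin gene Kif20a (0.254), Racgap1 (0.267), a regulator of cell division, and Tat (0.283), a hepatocyte enzyme that breaks down tyrosine. The profile itself had a root mean square of 0.532. Apcs ran from 54.5 CPM in male WT replicate 1 to 169 CPM in female NT-KO replicate 1, so that a hepatocyte gene lay as close to the mitotic profile as the mitotic gene Kif20a.

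Mcm6 (chr1:128331590-128359664) and Mcm2 (chr6:88883474-88898780) encode subunits of the MCM2 to MCM7 helicase that is loaded on replication origins in G1. Mcm6 was read at 6.64 and 5.73 CPM in the WT males, with 0.854 and 7.38 in the NT-KO males, and at 4.04 and 3.03 in the WT females, with 5.32 and 1.53 in the NT-KO females. Male NT-KO replicate 1, with 42 counts, was the lowest library and male NT-KO replicate 2, with 387 counts, the highest, a ratio of 8.63 in CPM. Mcm2 was read at 4.15 and 2.93 CPM in the WT males, with 1.36 and 4.67 in the NT-KO males, and at 3.64 and 2.22 in the WT females, with 3.20 and 2.19 in the NT-KO females. Its lowest and highest libraries were those same replicates of male NT-KO.

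The other subunits except Mcm7 showed the same split, which was not particular to the helicase. Of 30 listed genes of origin licensing and DNA synthesis, which include Mcm3, Mcm4, Mcm5 and Mcm7, 12 were lowest in male NT-KO replicate 1. In male NT-KO replicate 2 it was 0 of the 30. Some went the other way between these replicates, such as Tk1, at 77.8 and 40.7 CPM. Mcm3, Mcm4 and Mcm5 were lowest in male NT-KO replicate 1 as well (2.14, 2.32 and 1.14 CPM), so that all 5 of the MCM2 to MCM6 genes had their lowest value there, and 4 of 5 had their highest value in male NT-KO replicate 2, the exception being Mcm4. Summed over these 5 genes the male NT-KO libraries held 7.81 and 29.6 CPM, against 12.2 to 24.6 CPM in the other 6. Mcm7, read at 12.7 and 12.1 CPM in male NT-KO, did not show the split. Of the 50-base stretches of the Mcm7 transcript, 23.3% were also found in other genes. Of its exon bases 12.6% overlap other genes, foremost Ap4m1 on the other strand, so its counts may include their reads. In both female groups replicate 1 was higher for all 5 genes.

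**Figure D2:**
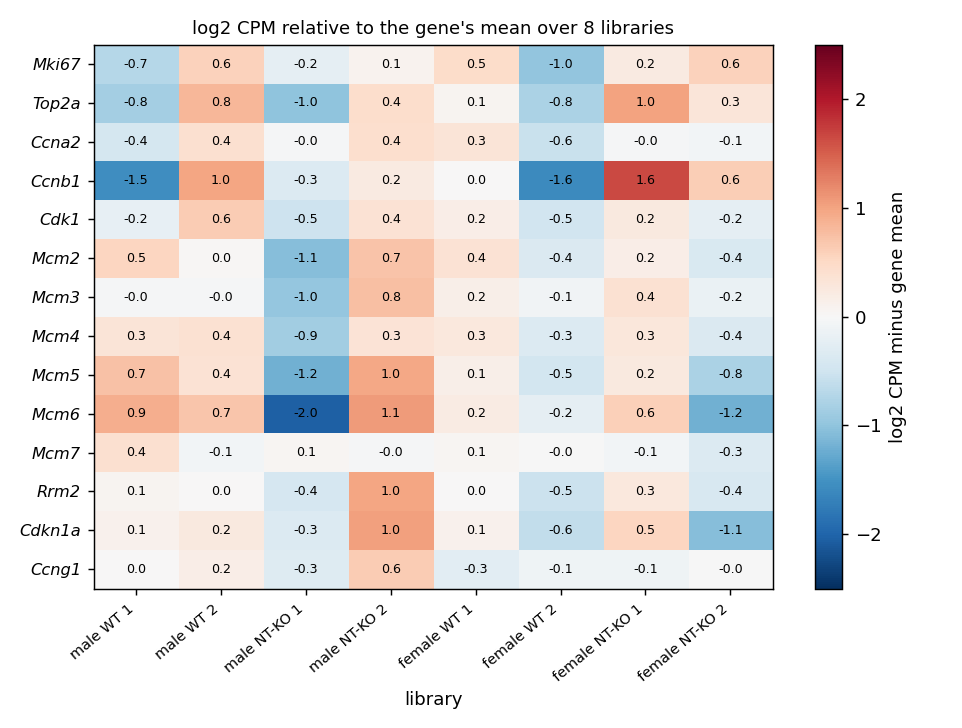
Each cell gives the log2 CPM of a gene (rows) in a library (columns) minus the gene's mean over the 8 libraries; red is above and blue below that mean. The mitotic genes of the upper 5 rows change sign between replicates of male WT and of female WT, and Mcm2 to Mcm6 are lowest in male NT-KO replicate 1, where Mcm7 is not.

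Cdkn1a (chr17:29090976-29100727), which encodes the p53-induced CDK inhibitor p21, was low in all groups, with 42 to 142 counts per library. It was read at 1.43 and 1.58 CPM in the WT males, with 1.06 and 2.71 in the NT-KO males, and at 1.45 and 0.867 in the WT females, with 1.93 and 0.642 in the NT-KO females. The NT-KO libraries of each sex enclosed those of WT, and the replicates of NT-KO differed by up to 3.01 times. Of the 4 genes most like it over the 8 libraries, Rrm2 (root mean square difference 0.256), a subunit of ribonucleotide reductase, and Pole (0.303), the catalytic subunit of DNA polymerase epsilon, act in DNA synthesis. Ctcfl (0.185), a paralogue of the chromatin factor CTCF, and its antisense neighbour Ctcflos (0.261) were the others, and Cdkn1a's own profile had a root mean square of 0.597.

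Ccng1 (chr11:40748552-40755311), cyclin G1, another p53 target, was the member with the smallest span over the libraries, 1.94 times. It was read at 28.8 and 32.3 CPM in the WT males, with 22.8 and 44.3 in the NT-KO males, and at 23.98 and 26.6 in the WT females, with 26.5 and 28.5 in the NT-KO females. Male NT-KO held both the lowest and the highest library. Of 24 further p53 target genes 22 were tested and none was called between NT-KO and WT in either sex by edgeR's quasi-likelihood test. In males 4 of the 22 were higher and 2 lower in NT-KO at an unadjusted p under 0.05, where 11.5% of all tested genes passed in either direction. The likelihood ratio test of edgeR (1.94% of all genes called) and DESeq2 (2.35%) each called 3 as higher, Bbc3, Gdf15 and Trp53inp1, and with no filter on low values (3.09%) 5 were called higher and 1 lower. These genes were named after their values were seen. Trp53inp1 was read at 23.7 and 26.3 CPM in the WT males and at 47.1 and 54.99 in the NT-KO males (log2 fold change 1.03, SE 0.168, adjusted p 0.157 by edgeR's quasi-likelihood test). Of the first 3 genes of the list, Mdm2, the ubiquitin ligase that limits p53, ranged from 17.4 to 29.1 CPM, Bax, a promoter of cell death, from 13.3 to 17.8 CPM, and Phlda3, an inhibitor of Akt, from 0.653 to 1.20 CPM.

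The first question of the design was whether NT-KO livers differed from WT livers in each sex. No member was called in males by edgeR's quasi-likelihood test at a Benjamini-Hochberg adjusted p of at most 0.05, where 0.0152% of the tested genes were. The 9 log2 fold changes of male NT-KO against WT ran from -0.59 (Mcm6, SE 0.837) to 0.33 (Cdkn1a, SE 0.588), with 3 above and 6 below 0, a median of -0.23 against 0.012 over all tested genes, and adjusted p-values from 0.711 to 0.955 (edgeR). None had an unadjusted p under 0.05, against 11.5% of all tested genes, and no member had groups that did not overlap, against 38.9%. B cell and plasma cell markers summed to 5.98 to 11.2 CPM in the WT males and 27.7 to 41.0 in the NT-KO males, with 0 of 7 called, 7 above 0 in the fit, 3 of them at an unadjusted p under 0.05, and Igkc the largest part of the sum. Of 12 clock genes 11 were tested and 0 were called in males. At an unadjusted p under 0.05 (edgeR's quasi-likelihood test) 4 of them were higher and 3 lower in NT-KO.

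In females no member was called either, against 0.00762% of the tested genes. The 9 log2 fold changes of NT-KO against WT ran from -0.14 (Ccnd1, SE 0.268) to 1.00 (Top2a), 6 above and 3 below 0, with a median of 0.118 against 0.001 over all tested genes, and each adjusted p was 1 (edgeR's quasi-likelihood test). None had an unadjusted p under 0.05, where 1.55% of the tested genes did. B cell and plasma cell markers summed to 16.3 to 20.9 CPM in the WT females and 9.80 to 11.4 in the NT-KO females, with 0 of 7 called, 7 below 0 in the fit and 2 of them at an unadjusted p under 0.05. Over both sexes the range was -0.32 (Mcm6) to 0.34 (Top2a), with no member called against 0.0152% of the tested genes, and all groups of 4 overlapped, whereas those of 0.953% of the tested genes did not. None had an unadjusted p under 0.05, against 5.42%. Standard errors of 0.191 to 0.593 on the log2 scale in that comparison set how small a difference could be seen, and the likelihood ratio test of edgeR and DESeq2 also called 0 members in each of these 3 comparisons.

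The difference between the sexes in the NT-KO effect was not called for any member, against 0.0152% of the tested genes. None had an unadjusted p under 0.05, against 7.2%. It was largest for Top2a, at 1.32 on the log2 scale (SE 0.904, adjusted p 0.769, edgeR's quasi-likelihood test with Benjamini-Hochberg adjustment), and lay between -0.19 and 0.64 for the other 8.

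**Figure D3:**
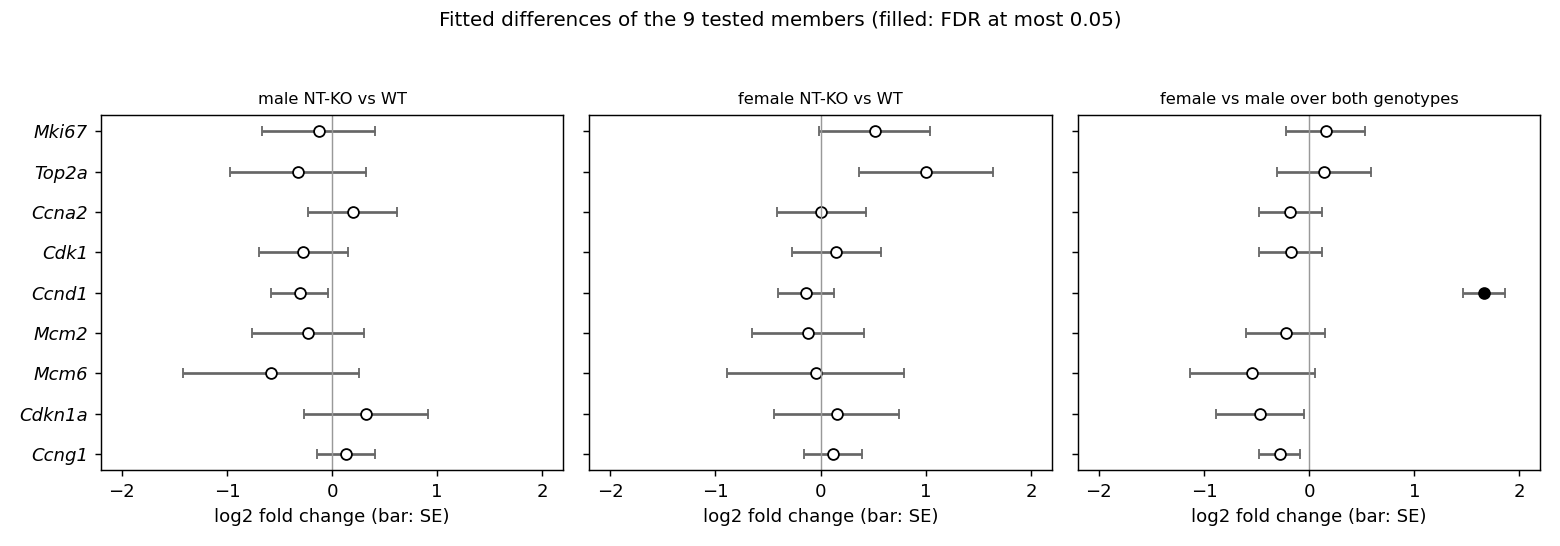
Log2 fold changes (x axes) with their standard errors (bars) for the 9 tested genes (rows) in male NT-KO against WT, female NT-KO against WT, and female against male; filled points have an adjusted p of at most 0.05. Only Ccnd1 in the comparison of the sexes, at 1.66, is filled.

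Ccnd1 (chr7:144929931-144939925), cyclin D1, which carries growth signals into G1 by activating CDK4 and CDK6, was read at 14.6 and 15.5 CPM in the WT males, with 9.22 and 15.1 in the NT-KO males, and at 47.0 and 42.8 in the WT females, with 32.0 and 49.4 in the NT-KO females. All 4 female libraries were above all 4 male libraries, as were those of 8.5% of the tested genes, and the genotypes overlapped within each sex. Ccnd1 was 3.16-fold higher in females (log2 fold change 1.66, SE 0.196, adjusted p 0.00195, edgeR's quasi-likelihood test with Benjamini-Hochberg adjustment). It was the 1 member of 9 called in this comparison, in which 7.84% of the tested genes were called and 4.12% were called as higher in females. Among the 540 genes called higher in females it was number 135 by size, and it was number 168 of all genes by p. The call held in all 16 alternatives, with log2 fold changes from 1.49 to 1.86.

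Within the genotypes the means of Ccnd1 were 15.04 CPM ± 0.686 (SD, n = 2) in the WT males and 44.9 ± 3.04 in the WT females. In NT-KO they were 12.1 ± 4.13 in males and 40.7 ± 12.3 in females. The NT-KO effect of Ccnd1 differed between the sexes by 0.17 (SE 0.382, adjusted p 0.938, edgeR's quasi-likelihood test). The gene shares 23.4% of its exon bases with LTO1 on the opposite strand. LTO1 was read at 11.6 to 16.02 CPM in males and 13.5 to 17.1 CPM in females, with a log2 fold change of 0.15 (SE 0.104, adjusted p 0.394, edgeR's quasi-likelihood test); it was looked up because of the overlap, after the result for Ccnd1 was known.

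Markers of other cell types and clock genes were read in the same libraries, where 4.12% of all tested genes were called higher and 3.72% lower in females. Summed Kupffer cell and macrophage markers were at 142 to 253 CPM in males and 265 to 319 in females, and endothelial markers at 110.0 to 171 and 176 to 195. None of the 6 genes of either list was called, and all 6 were higher in females in the fit. In each list 4 of the 6 had an unadjusted p under 0.05 (edgeR's quasi-likelihood test), against 26.9% of all tested genes in either direction. Erythroid markers summed to 326 to 801 CPM in males and 142 to 264 in females, with 4 of 6 tested and Alas2 called as lower. B cell and plasma cell markers summed to 5.98 to 41.0 and 9.80 to 20.9 CPM, with Cd22, Cd79b and Cd79a among those called higher and Jchain called lower. Of the clock genes 11 of 12 were tested, with Per3 called higher in females and Clock and Arntl called lower, and the sums were 533 to 747 CPM in males and 663 to 796 in females. Of 3 tested T and NK cell markers Trbc2 was called higher and Cd4 lower, of 5 bile duct markers Epcam higher, and of 11 fasting and glucocorticoid genes Pdk4 higher, while none of 2 neutrophil and 8 hepatocyte markers was called. The part of these signals in the difference of Ccnd1 was not tested.

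**Figure D4:**
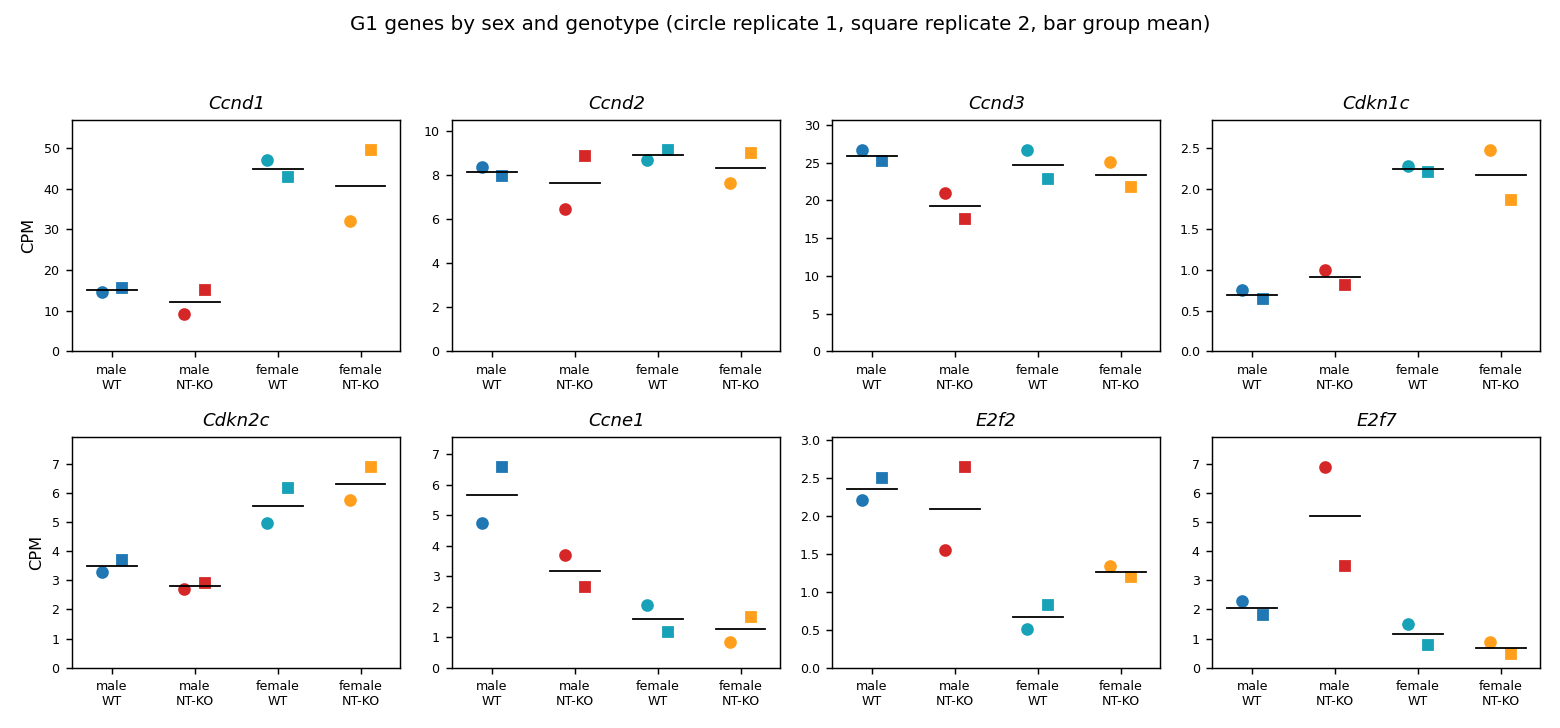
CPM (y axes from 0) of 8 genes of G1 control in the 8 libraries by sex and genotype (x axes); circles are replicate 1, squares replicate 2 and bars group means. Ccnd1, Cdkn1c and Cdkn2c are higher in all female libraries, as are 8.5% of the tested genes, Ccne1, E2f2 and E2f7 are lower, and Ccnd2 and Ccnd3 overlap. Apart from Ccnd2 and Ccnd3, the genes are shown because they were called between the sexes. Not called were 15 of the 18 listed G1 genes and 2 of the 4 tested CDK inhibitors.

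The other D-type cyclins did not separate by sex: Ccnd2 ranged from 6.45 to 8.86 CPM in males and 7.66 to 9.14 in females, and Ccnd3 from 17.6 to 26.6 and from 21.8 to 26.7. Of the list of 18 G1 cyclins, kinases, E2F and Rb genes, all were tested, 3 were called lower in females and 0 higher, where 3.72% of all tested genes were called lower, with a median log2 fold change of -0.30 against -0.009 over all tested genes. Ccne1, cyclin E1, which acts with CDK2 at entry into S phase, was read at 2.65 to 6.58 CPM in males and 0.861 to 2.07 in females, with a log2 fold change of -1.56 (SE 0.289, adjusted p 0.0164, edgeR's quasi-likelihood test). E2f2, an activator of S phase genes, was read at 1.55 to 2.65 CPM in males and 0.512 to 1.33 in females (log2 fold change -1.27, adjusted p 0.0227, edgeR's quasi-likelihood test). E2f7, a repressor among the E2F proteins, was read at 1.79 to 6.90 and 0.459 to 1.52 CPM (log2 fold change -1.90, adjusted p 0.0143, edgeR's quasi-likelihood test). Leaving out 1 library ended the call of Ccne1 for female WT replicate 2 or female NT-KO replicate 1 (adjusted p up to 0.0574, edgeR), of E2f7 for either female replicate 2 (up to 0.0561), and of E2f2 for either male replicate 2, female WT replicate 1 or either female NT-KO library (up to 0.0811). The summed level of this list was 211 to 228 CPM in the WT males, 183 to 184 in the NT-KO males and 170 to 176 in females. Between the male groups 6 of the 18 were lower and 1 higher in NT-KO at an unadjusted p under 0.05, against 11.5% of all tested genes in either direction, and 0 were called (edgeR's quasi-likelihood test). Ccne1 was read at 4.73 and 6.58 CPM in the WT males and 3.68 and 2.65 in the NT-KO males (adjusted p 0.469, edgeR's quasi-likelihood test).

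Of 7 further CDK inhibitors 4 were tested and 2 were called between the sexes, both higher in females, as were 4.12% of all tested genes. Cdkn1c, which encodes p57, was read at 0.637 to 0.997 CPM in males and 1.87 to 2.48 CPM in females (log2 fold change 1.47, SE 0.204, adjusted p 0.00458, edgeR's quasi-likelihood test). Cdkn2c, which encodes p18 and inhibits CDK4 and CDK6, was read at 2.69 to 3.68 and 4.98 to 6.90 CPM (log2 fold change 0.92, SE 0.150, adjusted p 0.00928, edgeR's quasi-likelihood test). Cdkn1b, which encodes p27, was read at 19.8 to 23.4 CPM in males and 16.04 to 20.4 in females and was not called. Cdkn1c shares 30.7% of its exon bases with Gm44732, which had no count in any library.

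Of 30 genes of origin licensing and DNA synthesis 25 were tested and 1 was called between the sexes, against 7.84% of all tested genes. This was Mcm10, which helps to open the loaded helicase. Mcm10 was read at 67.5 to 265 CPM in males and 30.6 to 52.5 in females (log2 fold change -1.66, SE 0.386, adjusted p 0.0383, edgeR's quasi-likelihood test), and its highest library, male WT replicate 1, was read at 265 CPM against 67.5 to 112 in the other males. The call was lost without either male NT-KO library or any 1 of the 4 female libraries, with an adjusted p of up to 0.138 (edgeR). Pcna, the sliding clamp of DNA polymerases, overlapped (13.2 to 24.95 CPM in males, 17.2 to 25.3 in females), as did Rrm2 and Mcm5. Among the p53 targets Perp, a membrane protein of cell junctions, was called at 65.3 to 81.4 CPM in males and 91.9 to 109 in females (log2 fold change 0.50), a call that was lost without any 1 library other than male NT-KO replicate 2.

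The other 8 tested members did not pass in the comparison of the sexes. Their log2 fold changes of female against male ran from -0.54 (Mcm6, SE 0.594) to 0.16 (Mki67, SE 0.375), and all of them overlapped. None had an unadjusted p under 0.05, against 26.9% of the tested genes. Ccng1 passed the threshold in 1 setting, without male NT-KO replicate 1, which left a single library in that group. Its log2 fold change there was -0.48, against -0.28 with all libraries (adjusted p 0.394, edgeR's quasi-likelihood test, Benjamini-Hochberg adjustment).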

How the data were processed

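Liver RNA was sequenced as 8 Illumina TruSeq libraries. The values are raw counts per Ensembl gene, which the authors made and deposited as 1 table; the submitters' processing notes name FastQC, cutadapt, STAR 2.6.1a, featureCounts and GRCm38. The strand setting and the treatment of reads with several matches are not given in the sources used here. All 8 columns were matched to samples by their labels, and 0 columns were left unused. Symbols and coordinates came from GENCODE vM21 (49412 of 49671 identifiers matched), and promoters from RefSeq.

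Counts were fitted with edgeR 4.0.16 (R 4.3.3): TMM factors, a minimum of 1 CPM (before TMM scaling) in 2 or more libraries, rRNA, miRNA and mitochondrial genes left out, 4 group means over all 8 libraries and the quasi-likelihood test, with p-values adjusted over 13117 genes by Benjamini-Hochberg and called at 0.05 or less. The scripts were tested on simulated data. CPM is the count divided by the total times the TMM factor. With 2 libraries per group the smallest two-sided permutation p for a single value is 0.333, so none is given. Ratios between replicates were set against exact counting error. The members and lists were chosen with earlier results of these data known. All members were named, with the first 3 genes of each cell cycle list and at most 3 called ones; of the marker lists the sums and called genes were given. Genes were matched to a profile by root mean square difference. Other settings tried were DESeq2 1.42.0 and the likelihood ratio test of edgeR, other size factors and filters, a replicate block, each sex alone and each library left out. Some marker genes are not reported here.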

Additional observations from a re-analysis of the deposited data

Results flagged for a closer look

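In 54 groups of 4 libraries (males, females, WT and NT-KO for each member, males and females for 7 further genes), 4 held a library far from the other 3 on the log2 CPM scale by Dixon's criterion, and chance flags about 1 in 20 such groups. Male NT-KO replicate 1 was low among the males for Mcm6, at 0.854 CPM against 5.73 to 7.38 CPM in the others, and for Ccnd1, at 9.22 CPM against 14.6 to 15.5 CPM. Male NT-KO replicate 2 was high among the NT-KO libraries for Ccna2, at 1.26 CPM against 0.887 to 0.915 CPM. Female WT replicate 2 was low among the WT libraries for Cdkn1a, at 0.867 CPM against 1.43 to 1.58 CPM.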

How the results depend on the processing

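Ccnd1 was called as higher in females under every alternative run (log2 fold change 1.49 to 1.86, adjusted p at most 0.0103, edgeR or DESeq2), and 0 members were called between NT-KO and WT under any. The number of members called between the sexes was 1, and 1 to 2 when single libraries were left out, the second being Ccng1 without male NT-KO replicate 1. For the 34 fold changes of members and of 7 further genes, 497 of 561 alternative values kept their direction and side of the threshold, 23 lost and 1 gained a call, and 40 changed sign, 38 of them when a library was left out.

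The fold changes of single members that changed sign are given by their range over the libraries left out. For male NT-KO against WT they were -0.65 to 0.65 (Mki67), -1.23 to 0.73 (Top2a), -0.18 to 0.66 (Ccna2), -0.78 to 0.21 (Cdk1), -0.71 to 0.002 (Ccnd1), -1.38 to 0.40 (Mcm2), -2.86 to 0.25 (Mcm6), -0.51 to 0.85 (Cdkn1a) and -0.43 to 0.54 (Ccng1). For female NT-KO against WT they were -0.041 to 1.40 (Mki67), -0.38 to 0.51 (Ccna2), -0.14 to 0.51 (Cdk1), -0.49 to 0.14 (Ccnd1), -0.44 to 0.28 (Mcm2), -1.21 to 0.59 (Mcm6) and -0.84 to 0.75 (Cdkn1a). For female against male they were -0.28 to 0.55 (Mki67), -0.17 to 0.67 (Top2a), -0.43 to 0.052 (Ccna2), -0.36 to 0.078 (Cdk1), -0.54 to 0.35 (Mcm2) and -1.12 to 0.60 (Mcm6). Ccna2 in females went from 0.006 to -0.016 with library sizes alone and to -0.004 with the replicate block. The cause was not tested.

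The replicate numbers were not found to pair the samples (correlations of deviations -0.181 to 0.209 over 13117 genes). With the replicate number as a block, Ccnd1 stayed the 1 member called between the sexes and Mcm10 lost its call (log2 fold change -1.62, adjusted p 0.0608, edgeR). Over all genes tested the counts called moved with the tool and filter, from 2 in the male comparison to 254 (likelihood ratio test), 308 (DESeq2), 6 (filterByExpr), 0 (male libraries alone) and 917 (no filter), from 1 in the female comparison to 11, 5 and 194 with the first, second and last of these, from 2 over both sexes to 51, 62 and 445, from 1028 between the sexes to 1757, 1849 and 2722, and from 2 for the difference between the sexes to 46, 62 and 552. Without the filter, 2 genes of G2 and mitosis were called between the sexes and 2 in the difference between the sexes, and the G1 list had 5 calls between the sexes (3 with the filter) and 2 in males. Calls in the origin licensing list between the sexes were 0 with the block, 1 in the reported fit and 2 with the other tools, library sizes alone or no filter. Counts of 6 to 66 for Ccnb1 and Ccna2 limit what could be seen of them.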
